A study of Sus scrofa with 11 samples.

Results

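The genes described here are skeletal muscle genes measured in healing skin wounds of Yucatan minipigs: the contractile proteins of fast and slow fibres, the enzymes that fuel them, and the transcription factors that rebuild muscle. They were chosen by name, and 41 of the 44 names matched a gene name among the 30376 genes measured. MB, MYH3 and MYH8 matched none and are not analysed here under those names. RNA came from 7 wounds of 1 female minipig made diabetic with streptozotocin (STZ), an agent that kills the insulin-producing beta cells, and from 4 wounds of 1 non-diabetic female minipig. All wounds were full-thickness punches through the skin of the back, all were sampled again with a punch on day 10, and the diabetic animal had received insulin that was stopped before wounding. Each library is 1 wound, replicates of a group are wounds of a single pig, and the animal cannot be told apart from its diabetes. Age at wounding is not given in the labels. Values are FPKM, read counts scaled by gene length and library size, which allow levels of different genes to be set side by side.

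Skeletal muscle fibres contract through myosin motors that pull on actin filaments, with troponin as the calcium switch and calsequestrin and the ATP2A1 pump handling the calcium store. Fast and slow fibres build this apparatus from different members of the same gene families, and fast glycolytic fibres hold more of the enzymes that burn glycogen. Damaged fibres are rebuilt from satellite cells, which carry PAX7 and MYF5 and then switch on MYOD1 and MYOG. Dermis and epidermis hold few striated fibres, while in the trunk of pigs sheets of skeletal muscle lie beneath the skin and its fat.

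Nearly the whole muscle signal of the series lay in 1 wound, diabetic replicate 3. The 41 genes summed to 3330 FPKM there and to between 13.6 and 62.2 FPKM in the other 10 wounds, with a median of 26.5, a 126-fold gap to that median. In reads, 275709 of the 40168372 reads on genes of diabetic replicate 3 fell on these genes, or 0.686% with an exact binomial 95% interval of 0.684% to 0.689%. The other wounds had 1088 to 4195 such reads, or 0.00374% to 0.0127%. Every one of the 41 genes had a read in diabetic replicate 3, against 20 to 28 genes in each of the other wounds, and 40 of them had their highest value in that wound. The exception was CA3. Since this wound was singled out because of its muscle signal, these gaps are descriptions and were not tested. In a bulk sample a larger number of muscle fibres and more muscle RNA per fibre cannot be told apart, and nothing measured here says where in the punch the fibres lay. Intervals on a single library cover counting error only.

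**Figure D1:**
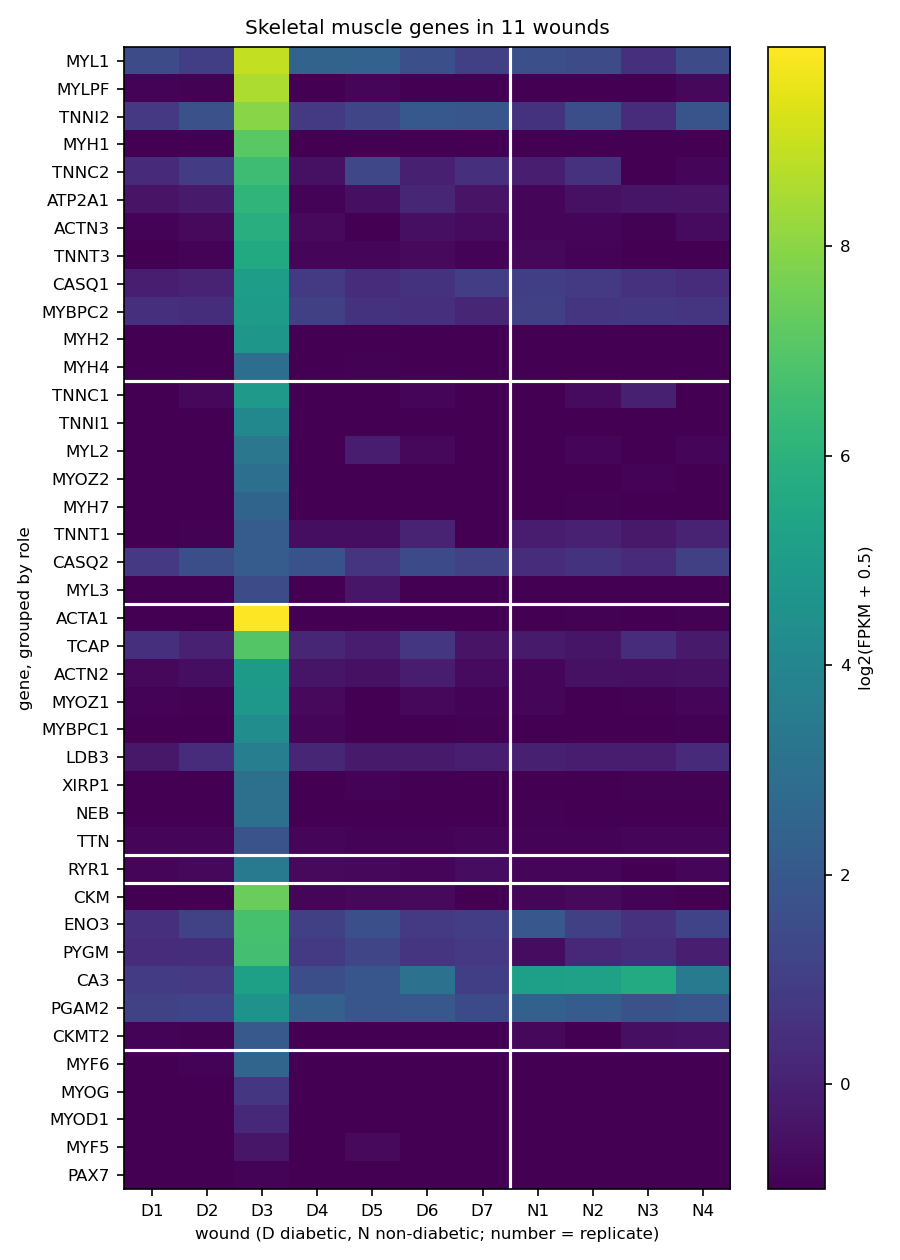
Level of the 41 skeletal muscle genes (rows, grouped by role) in the 7 diabetic (D1 to D7) and 4 non-diabetic (N1 to N4) wounds, as log2(FPKM + 0.5). The column of diabetic replicate 3 (D3) is the highest in 40 rows, and CA3 is the row with high values in the non-diabetic wounds.

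Measured on FPKM + 0.5, 34 of the 41 genes (82.9%) stood at least 4-fold above the highest of the other 10 wounds in diabetic replicate 3. Over all 30376 genes the share was 0.277%, or 84 genes. The same count made for each of the other wounds gave 0 to 8 genes. Of the 84 genes, 34 were the muscle genes described here, 24 came from 5 further muscle lists, none came from 9 lists of other cell types, and 26 were in no list. PGAM2 (4.63-fold) and TNNT1 (4.32-fold) lay just inside the 4-fold line, and MYL3 (3.52-fold) and MYOG (3.26-fold) just outside it. The other genes under the line were MYOD1, MYF5, PAX7, CASQ2 and CA3. Because 0.5 FPKM is added, a gene of low level in diabetic replicate 3 stays under the line even with no read elsewhere. This was so for MYOG and MYOD1.

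**Figure D2:**
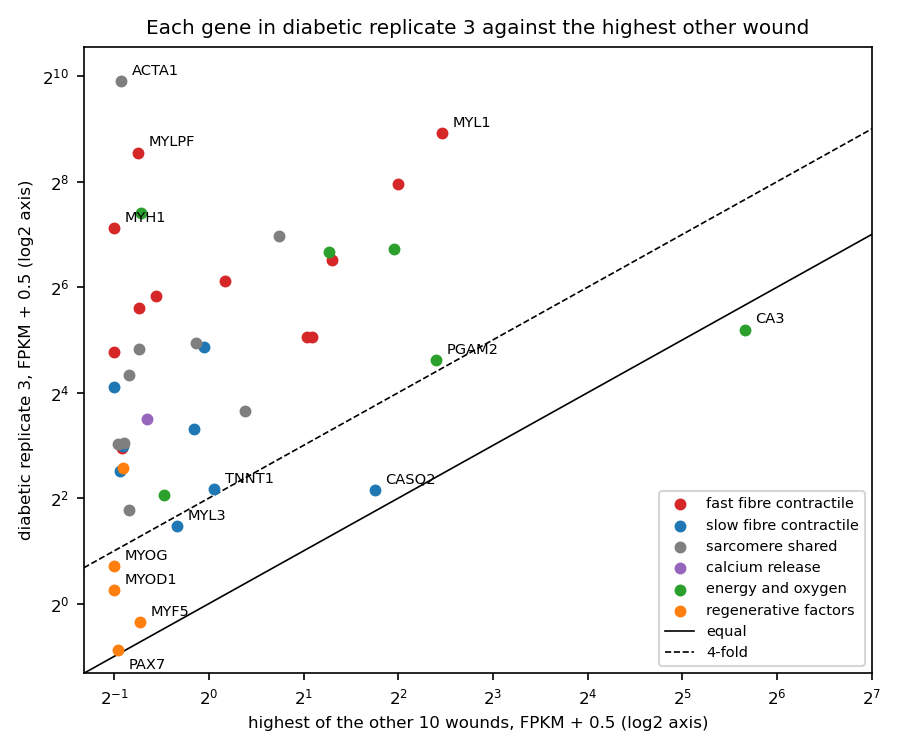
FPKM + 0.5 of each of the 41 genes in diabetic replicate 3 (vertical, log2 axis) against the highest of the other 10 wounds (horizontal, log2 axis), coloured by role, with lines at equal level and at 4-fold. ACTA1 lies farthest above the lines, the regenerative factors other than MYF6 lie near the lower left corner, and CA3 alone lies below the line of equality.

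The gene with the highest level was ACTA1, the actin of adult skeletal muscle thin filaments, with 957 FPKM in diabetic replicate 3, where it ranked 50th of all genes. It had no read in the other 6 diabetic wounds or in non-diabetic replicates 1 and 3, 1 read in non-diabetic replicate 2 and 2 reads in non-diabetic replicate 4, against 70996 reads in diabetic replicate 3. ACTA1 alone made 28.8% of the summed muscle FPKM. MYL1, the fast essential myosin light chain, followed with 483 FPKM, then MYLPF, the fast regulatory light chain, with 374 FPKM, and TNNI2, the fast troponin I, with 246 FPKM. These 4 genes made 61.9% of the sum. The 250 bases before the annotated start of ACTA1, MYL1 and TNNI2 are printed 5′ to 3′ on the gene's strand from the Sscrofa11.1 genome, and are shown because these genes were among those that carried most of the signal. Capitals mark matches to the motifs named after them.

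ACTA1, chr14:60412401-60412650, plus strand: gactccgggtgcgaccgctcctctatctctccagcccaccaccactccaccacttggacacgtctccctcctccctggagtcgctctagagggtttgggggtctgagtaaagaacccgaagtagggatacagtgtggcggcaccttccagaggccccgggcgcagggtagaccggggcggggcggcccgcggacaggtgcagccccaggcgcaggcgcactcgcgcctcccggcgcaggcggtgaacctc
MYL1, chr15:113051316-113051565, minus strand: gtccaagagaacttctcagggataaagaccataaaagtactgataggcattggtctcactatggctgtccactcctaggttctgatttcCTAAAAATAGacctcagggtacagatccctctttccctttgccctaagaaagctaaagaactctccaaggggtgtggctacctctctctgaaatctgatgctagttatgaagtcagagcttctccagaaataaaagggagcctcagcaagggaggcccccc
TNNI2, chr2:1251316-1251565, plus strand: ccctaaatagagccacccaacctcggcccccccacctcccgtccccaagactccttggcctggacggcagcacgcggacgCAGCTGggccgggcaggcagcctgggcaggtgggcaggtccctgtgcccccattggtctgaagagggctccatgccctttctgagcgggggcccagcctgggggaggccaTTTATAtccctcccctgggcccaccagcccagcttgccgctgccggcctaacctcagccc

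A site for MEF2, a factor of differentiated muscle, stood at -161 to -152 in the MYL1 window. The E-box CAGCTG, a sequence that MYOD1 and its relatives can bind, stood at -170 to -165 before TNNI2. TNNI2 also had TTTATA, the reverse complement of TATAAA, at -60 to -55. The ACTA1 window held no match to the 4 motifs searched on both strands, which were the E-box, the TATA motif, the MEF2 site and the CArG box of serum response factor. The letters of the TATA motif can lie inside a MEF2 site and are then counted under both. Among the windows of the 41 genes, 11 (26.8%) held CAGCTG, 10 (24.4%) a MEF2 site, 4 (9.76%) a CArG box and 6 (14.6%) TATAAA. In the same windows of 20664 protein-coding genes the shares were 13.5%, 2.70%, 1.27% and 10.4%. These are counts of letters in a window, they were not tested, and a match is not evidence of binding. Annotated starts were not checked against the start of transcription, so a missing match does not show that a promoter lacks the motif.

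The fast fibre genes held the largest part of the signal. The 12 of them summed to 1606 FPKM in diabetic replicate 3, or 48.2% of the muscle sum, against 4.19 to 11.02 FPKM in the other wounds, and all 12 were over the 4-fold line, where the background was the 0.277% given above. After the light chains and TNNI2 came MYH1, the IIx fast myosin heavy chain, with 138 FPKM from 34899 reads. MYH1 had no read in any of the other 10 wounds, so its level was at least 7627-fold higher than the 3 reads per library that a count of 0 allows. MYH2, the IIa myosin, had 26.6 FPKM from 7623 reads, again with 0 reads in the other 10 wounds and at least 1666-fold above that limit. MYH4, the IIb myosin, had 7.21 FPKM from 1732 reads, and the only other wound with a read of it was diabetic replicate 5, with 6.

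The remaining fast genes were the calcium-handling and thin and thick filament partners of these motors. TNNC2, fast troponin C, had 90.9 FPKM against 0 to 1.97 in the other wounds. ATP2A1, the calcium pump of fast fibres, had 68.9 FPKM against 0.0365 to 0.626. ACTN3, the alpha-actinin of fast fibres, had 56.6 FPKM against 0 to 0.178. TNNT3, fast troponin T, had 48.2 FPKM against 0 to 0.0980. CASQ1, the calsequestrin of fast fibres, and MYBPC2, fast myosin binding protein C, each had 32.6 FPKM. These last genes were present at a low level in every wound, as were ATP2A1, MYL1 and TNNI2, with CASQ1 at 0.450 to 1.55 FPKM and MYBPC2 at 0.632 to 1.62 FPKM in the other 10.

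Among the adult myosin heavy chains of diabetic replicate 3, MYH1 made 78.0% of the summed FPKM, MYH2 15.0%, MYH4 4.06% and MYH7, the slow and cardiac beta myosin, 2.93%. The division among the fast myosins is uncertain, because their genes stand side by side on chromosome 12 and share sequence. Of all 100-base windows along its exons, MYH1 shared 39.8% letter for letter with another of 6 myosin genes, MYH4 34.9% and MYH2 11.7%, while MYH7, on chromosome 7, shared none. How reads that matched several of them were counted is not given in the sources used here. Genes that the annotation describes as myosin-3 and myosin-8, the embryonic and perinatal heavy chains, lie in the same cluster under the symbols LOC396711 and LOC110255887, and were looked up from their descriptions rather than by the names above. LOC110255887 had 4.75 FPKM from 1122 reads in diabetic replicate 3 and 0 to 9 reads elsewhere. LOC396711 had 2.22 FPKM from 531 reads, but also 77 to 211 reads in each of the other 10 wounds. With both included, MYH1 made 75.1% of the 6 myosins, myosin-8 2.57% and myosin-3 1.21%.

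The slow fibre genes were present at a lower level. The 8 of them summed to 77.6 FPKM in diabetic replicate 3, or 2.33% of the muscle sum, against 1.20 to 3.03 FPKM in the other wounds, and 6 of the 8 were over the 4-fold line. TNNC1, the troponin C of slow and cardiac muscle, led with 28.6 FPKM, and non-diabetic replicate 3 had the next highest value at 0.463. TNNI1, slow troponin I, had 16.7 FPKM from 793 reads and no read in the other 10 wounds, a level at least 173-fold above the limit of 3 reads. MYL2, the slow and cardiac regulatory light chain, had 9.46 FPKM, MYOZ2, a calcineurin-binding protein of slow fibres, 7.41, and MYH7 5.20. TNNT1, slow troponin T, had 4.00 FPKM against 0 to 0.541, and MYL3, the slow and ventricular essential light chain, had 2.28 FPKM from 66 reads. CASQ2, the calsequestrin of slow and cardiac muscle, was of another kind. Its 3.97 FPKM in diabetic replicate 3 was 1.38 times the next highest value, and every wound had at least 63 reads of it.

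In each of 7 fast and slow pairs the fast gene was the higher in diabetic replicate 3, by very different ratios. The ratio of FPKM, with its counting interval of 95%, was 3.18 (2.89 to 3.51) for troponin C, 12.1 (10.9 to 13.4) for troponin T and 14.7 (13.7 to 15.9) for troponin I. It was 39.6 (35.5 to 44.2) for the regulatory light chains and 212 (166 to 274) for the essential light chains. The calsequestrins gave 8.22 (7.43 to 9.11), or 12.5 once the median of the other 10 wounds was subtracted from each gene, and MYOZ1 over MYOZ2 gave 3.75 (3.41 to 4.13). Troponin C and the calsarcins showed the narrowest gaps of the 7, and the interval of the essential light chains lay clear of the other 6. ACTN3 over ACTN2 was 1.87 (1.81 to 1.94) and MYBPC2 over MYBPC1 1.66 (1.59 to 1.74), where the second gene of the pair is used in fast and slow fibres alike. These ratios describe 1 library, and no second wound with muscle signal was there to give a spread.

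**Figure D3:**
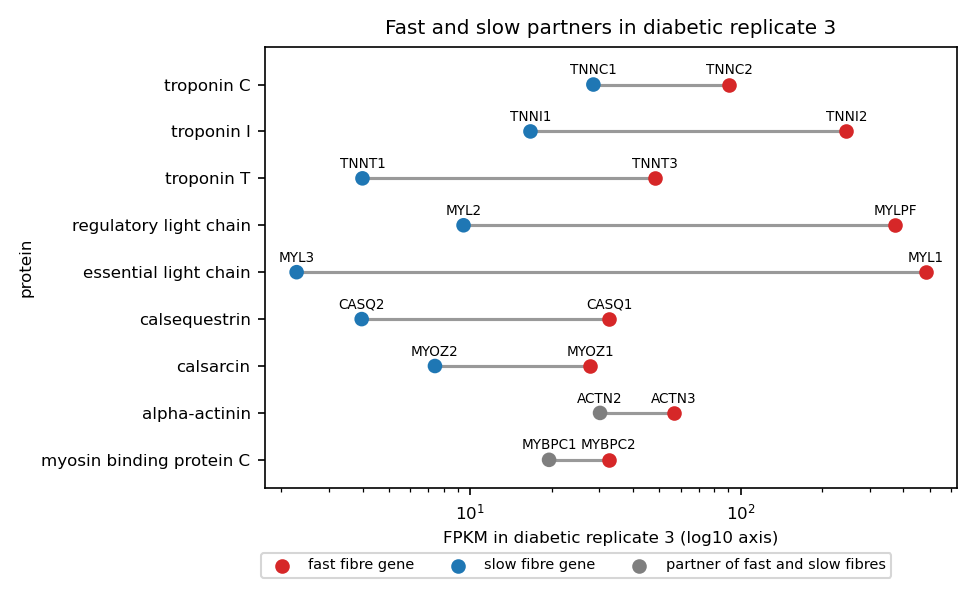
FPKM in diabetic replicate 3 (log10 axis) of the fast gene (red) and its partner (blue for slow fibre genes, grey for partners used in both) of 9 proteins. The red point lies to the right in every row, and the distance is widest for the essential light chains, 483 against 2.28 FPKM.

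The other sarcomere genes, 8 used in both fibre types and MYOZ1, which was kept with them and left out of the fast sum, came to 1190 FPKM in diabetic replicate 3, 35.7% of the muscle sum, and all 9 were over the 4-fold line. Beyond ACTA1 the next was TCAP, the telethonin that caps titin at the Z-disc, with 125 FPKM against 0.239 to 1.17 in the other wounds. ACTN2, a Z-disc alpha-actinin, had 30.2 FPKM, MYOZ1, a Z-disc calsarcin of fast fibres, 27.8, MYBPC1, a myosin binding protein C, 19.6, and LDB3, a Z-disc adaptor, 12.1. XIRP1, an actin-binding protein of the intercalated disc and of repairing fibres, had 7.75 FPKM. NEB, the nebulin ruler of the thin filament, had 7.63 FPKM and TTN, the titin spring, 2.92. Both giants have low FPKM for many reads, since FPKM divides by their great length, with 6887 reads for NEB and 12004 for TTN. Outside diabetic replicate 3, NEB had at most 11 reads, whereas TTN had 106 to 268 reads in every wound. RYR1, the calcium release channel of the sarcoplasmic reticulum, had 10.8 FPKM against 0.00748 to 0.134.

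The genes of energy supply summed to 437 FPKM, 13.1% of the muscle sum. CKM, the muscle creatine kinase, had 168 FPKM from 15125 reads, while 4 of the other wounds had no read of it and the most was 8. ENO3, the muscle enolase, had 105 FPKM against 0.917 to 3.39, and PYGM, the muscle glycogen phosphorylase, 100.4 FPKM against 0.141 to 1.90. PGAM2, the muscle phosphoglycerate mutase, had 24.0 FPKM, and the other wounds already held 1.64 to 4.79. CKMT2, the mitochondrial creatine kinase of striated muscle, had 3.65 FPKM against 0 to 0.217. These enzymes thus differed in how much of a level the other wounds had, from at most 8 reads for CKM to several FPKM for PGAM2.

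CA3, carbonic anhydrase III, an enzyme abundant in slow muscle and in fat, was the one gene of the 41 without its peak in diabetic replicate 3. It had 36.1 FPKM there, and 1.42, 1.27, 2.56, 3.27, 8.23 and 1.56 FPKM in diabetic replicates 1, 2, 4, 5, 6 and 7. The non-diabetic wounds had 35.2, 37.8, 50.1 and 10.4 FPKM. Diabetic replicate 3 lay within the range of the non-diabetic wounds, and the other 6 diabetic wounds all lay below that range. CA3 weighed on the summed level of the other wounds, which ran higher in the non-diabetic wounds, at 27.6 to 62.2 FPKM, than in the other 6 diabetic ones, at 13.6 to 28.5 FPKM. Without CA3 and PGAM2, which were at 1 FPKM or more in every wound, and without CASQ2, the sum of the other wounds was 8.57 to 17.8 FPKM, against 3265 in diabetic replicate 3.

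The regenerative factors were low even in diabetic replicate 3, where the 5 of them summed to 7.60 FPKM, 0.228% of the muscle sum. MYF6, a factor that mature fibres keep, made most of this, with 5.45 FPKM from 285 reads, and diabetic replicate 2 was the only other wound with any, 2 reads. MYOG, which drives differentiation into fibres, had 1.13 FPKM from 30 reads, and MYOD1, the factor that commits cells to muscle, 0.689 FPKM from 26 reads. Neither had a read in the other 10 wounds, which puts them at least 6.56-fold and at least 5.68-fold above the limit of 3 reads. MYF5, expressed in satellite cells and early myoblasts, had 0.287 FPKM from 10 reads, and diabetic replicate 5 had 3 reads. PAX7, the marker of satellite cells, had 0.0456 FPKM from 11 reads, and diabetic replicate 1 had 3 reads. MYF6 alone was over the 4-fold line, and for MYF5 and PAX7 the few reads leave the gap to the next wound close to counting error. With 0.5 FPKM added, MYOG, MYOD1, MYF5 and PAX7 were too low in diabetic replicate 3 to cross the line whatever the other wounds held.

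Outside diabetic replicate 3, muscle genes were of different kinds. For 20 of the 41 genes no other wound had more than 10 reads. The 15 genes with a read in every wound were MYL1, TNNI2, MYBPC2, CASQ1, CASQ2, ATP2A1, ACTN2, TTN, TCAP, LDB3, RYR1, PYGM, ENO3, PGAM2 and CA3. Diabetic replicate 5 had 12 reads of MYL2, 7 of MYL3, 6 of MYH4 and 3 of MYF5, against at most 2 reads in any of the other 9 wounds, and no read of ACTA1, MYH1 or MYH2.

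Other muscle genes showed the same wound. Of 98 measured genes in 5 further lists, 24 were over the 4-fold line in diabetic replicate 3. In the list of other sarcomere genes it was 14 of 30, led by CSRP3, a muscle LIM protein (23.6 FPKM, no read elsewhere), ACTC1, the cardiac actin (29.3 FPKM), KLHL41 (32.9 FPKM), XIRP2 (16.0 FPKM) and MYOT, myotilin (1051 reads, at most 7 elsewhere). Among excitation and calcium genes it was 6 of 17, led by SLN, the sarcolipin that restrains the calcium pump, with 61.2 FPKM against 0.312 to 1.43. CACNA1S, the voltage sensor of the T-tubule, had 6.55 FPKM, and TRDN, triadin, 4.79 FPKM with no read elsewhere. JSRP1 (4.47 FPKM) and SRL (4.67 FPKM), proteins of the sarcoplasmic reticulum, were over the line too.

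Muscle metabolism gave 3 of 16, which were APOBEC2 (4.81 FPKM, no read elsewhere), DHRS7C (3.53 FPKM) and AMPD1, the muscle AMP deaminase (5.20 FPKM). PFKM, the muscle phosphofructokinase, had 32.1 FPKM against 5.10 to 8.16, and ALDOA, aldolase A, 170 FPKM against 59.9 to 95.9. Both were highest in diabetic replicate 3 and under the 4-fold line. Membrane and junction genes gave 1 of 18, CAV3, the caveolin of the fibre membrane, with 3.79 FPKM. The next in that list, CHRNA1 and CHRND, subunits of the acetylcholine receptor, had 2.06 and 0.470 FPKM, SGCA, a sarcoglycan, 4.66, and ANO5 0.297.

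Satellite cell and fusion genes gave 0 of 17. CDH15, M-cadherin, was the highest there relative to the other wounds, with 0.842 FPKM from 95 reads, against at most 14 reads elsewhere. Next came VGLL2 (0.440 FPKM, 50 reads, none elsewhere) and MSTN, myostatin (0.271 FPKM). EYA4 (0.214 FPKM, 160 reads, at most 7 elsewhere) and MYMK, the fusion protein myomaker (0.167 FPKM, 8 reads), followed. With 0.5 FPKM added, the genes just named were too low to cross the line whatever the other wounds held. For them the count of 0 was set in advance. Of the 26 genes over the line that were in no list, 10 had 5 FPKM or more in diabetic replicate 3. They included EEF1A2, the elongation factor of muscle and neurons (72.2 FPKM), PDLIM3, a Z-disc protein (55.5), ANKRD1 (28.3) and FBP2, the muscle fructose bisphosphatase (15.7). PPP1R1A (14.9), HSPB7 (12.5), IGFN1 (9.81), MIR133A-2, a muscle microRNA gene (9.76, from 28 reads), COX8H (7.31) and DUSP26 (6.54) were the rest.

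Genes of other cell types did not set diabetic replicate 3 apart. None of the 73 measured markers was over the 4-fold line there, and keratinocyte markers, the epidermal part of the labelled tissue, varied widely, with a sum of 39.5 to 6631 FPKM in the other wounds. KRT5, of basal keratinocytes, was at 29.2 FPKM or more in each of these, while LOR and IVL, of the outer epidermis, had no read in at least 1 of them. Smooth muscle markers, which share the contractile theme but not the genes, summed to 996 FPKM in diabetic replicate 3, the 5th highest of the 11 wounds, against 602 to 1450 in the others. Heart-restricted markers summed to 0.958 FPKM, the 9th highest, with MYH6 not in the sum. LOC100736765, described as myosin-6, went the other way, with 0.155 FPKM from 39 reads in diabetic replicate 3 and 0 to 7 reads elsewhere. Adipocyte markers were 3rd highest at 663 FPKM against 370 to 1050, keratinocyte and macrophage markers 4th, Schwann cell markers 5th, granulation fibroblast markers 7th, sebaceous markers 8th and endothelial markers 9th. On the first principal component of all genes, which held 44.5% of the variance, diabetic replicate 4 and non-diabetic replicate 1 stood apart, and diabetic replicate 3 lay with the rest.

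The study's own comparison was of diabetic with non-diabetic wounds, and diabetic replicate 3 is 1 of the 7 diabetic libraries. The study used a count model on raw reads, whereas the fits here are on FPKM, so the calls below are not the study's. The effect of replicate 3 on the study's own calls was not tested. Log2(FPKM + 0.5) was compared with limma for the 13956 genes at 0.5 FPKM or more in at least 4 libraries, and a gene was called at an adjusted p under 0.05 and a log2 fold change over 0.5 in size. It called 188 genes higher (1.35%) and 231 lower (1.66%) in the diabetic wounds. Of the 41 muscle genes 13 passed the filter, 11 with a positive fold change, and none was called, where 3.0% of all tested genes were. The lowest unadjusted limma p-values of the 13 were 0.00425 for CA3 and 0.0175 for CASQ2. How many of all tested genes had unadjusted p-values as low was not counted. The median log2 fold change of the 13 was 0.65, against 0.01 for all tested genes. A single wound with values this high raised the mean and the spread of its group together. MYL1, for instance, had 71.7 ± 182 FPKM (SD, n = 7) in the diabetic wounds and 3.02 ± 1.58 (SD, n = 6) without replicate 3, against 2.07 ± 0.784 (SD, n = 4) in the non-diabetic wounds. Its limma log2 fold change was 1.43 with a standard error of 1.28, and 0.40 with a standard error of 0.35 without replicate 3.

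Without diabetic replicate 3, and so with 6 diabetic wounds, fewer genes were called. On 13871 tested genes, 140 were called higher (1.01%) and 154 lower (1.11%), of which 135 and 149 were also called with all 11 wounds, and no called gene changed direction between the fits. Leaving out diabetic replicate 5 gave similar counts (135 and 154), as did replicate 7 (145 and 155), whereas without replicate 1 they rose to 236 and 247. Of the 16 tested genes among the 84 that stood 4-fold above all other wounds, none was called in either fit. Among all tested genes 3.0% were called with the wound and 2.12% without it. Genes picked for 1 high wound have a wide spread in its group, so the 0 with all wounds was largely set in advance. No conclusion is drawn from it. The fold change moved by over 0.5 for 17 tested genes, and 9 of these were among the 41 muscle genes. Fold changes of MYBPC2 (0.39), CASQ1 (0.41), ENO3 (0.65) and PGAM2 (0.04) became -0.25, -0.24, -0.16 and -0.39 without the wound, none of them called by limma in either fit. Over the 11 muscle genes tested in both fits, the median log2 fold change was 0.76 with the wound and 0.24 without it, while that over all tested genes stayed at 0.01.

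**Figure D4:**
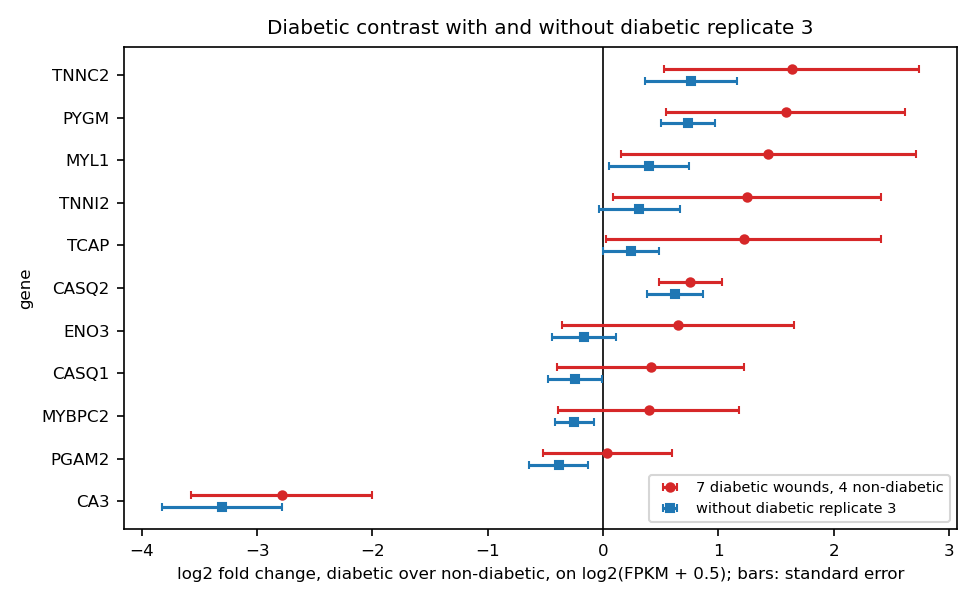
Log2 fold change of diabetic over non-diabetic wounds on log2(FPKM + 0.5), with its limma standard error as bars, for the 11 muscle genes tested in both fits, using all 7 diabetic wounds (red) or leaving out replicate 3 (blue). The red bars are wider for all 11 genes, 4 points cross the line at 0, and CA3 lies at -2.79 and -3.30.

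CA3 was the 1 muscle gene that was called without the wound, where 2.12% of all tested genes were called. With all 7 diabetic wounds its level was 7.77 ± 12.7 FPKM (SD, n = 7) against 33.4 ± 16.6 (SD, n = 4), and limma put the log2 difference at -2.79 (standard error 0.78, adjusted p = 0.0797). Without diabetic replicate 3 it was 3.05 ± 2.65 FPKM (SD, n = 6), and limma gave -3.30 (standard error 0.52, adjusted p = 0.00997). The groups then did not overlap, as was so for 6.21% of all tested genes (5.65% with all wounds, when no muscle gene had separate groups), and the adjusted p ranged from 0.00997 to 0.403 over all the alternatives tried. Fat also expresses CA3, and 6 of the 9 adipocyte markers tested had negative fold changes, with a median log2 fold change of -0.54 over the 9 and -0.60 without diabetic replicate 3. LEP, the hormone leptin, was called lower by limma (log2 fold change -1.41, adjusted p = 0.0126), ADIPOQ stood at -0.97 and PLIN1 at -1.12 without a call, and FABP4, the most abundant, at 0.92. The summed markers ran from 370 to 1050 FPKM in the diabetic and from 402 to 598 FPKM in the non-diabetic wounds. Their part in the CA3 difference was not tested.

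PYGM and CASQ2 pointed the other way and were not called. PYGM without diabetic replicate 3 ran from 0.796 to 1.90 FPKM in the diabetic wounds and from 0.141 to 0.835 in the non-diabetic ones, so the groups overlapped slightly. The log2 difference by limma was 1.58 (standard error 1.04, adjusted p = 0.461) with the wound and 0.73 (standard error 0.23, adjusted p = 0.147) without it, and the adjusted p was 0.147 to 0.703 over the alternatives. CASQ2 had 2.23 ± 1.01 FPKM (SD, n = 7) against 1.06 ± 0.392 (SD, n = 4). By limma the log2 difference of 0.76 (standard error 0.27, adjusted p = 0.160) became 0.62 (standard error 0.24, adjusted p = 0.226), with 0.107 to 0.412 over the alternatives.

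**Figure D5:**
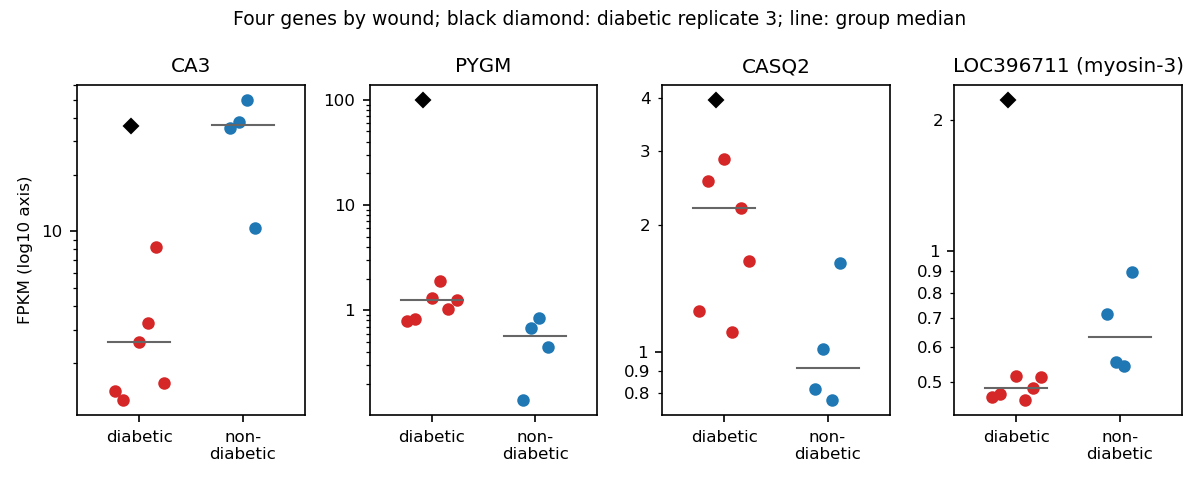
FPKM (log10 axis, a separate scale for each gene) of CA3, PYGM, CASQ2 and LOC396711 in the diabetic (red, replicate 3 as a black diamond) and non-diabetic (blue) wounds, with the median of each group as a line. Replicate 3 is the highest point of all for PYGM, CASQ2 and LOC396711, and for CA3 it lies among the non-diabetic wounds.

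The other 28 muscle genes were too low in most wounds for the filter and were compared by permuting the 11 wounds exactly (330 splits, two-sided, smallest possible p 0.00303). No gene of the 28 reached an unadjusted exact p under 0.05, against 9.05% of the 9585 genes under the filter with a read. A gene with reads in 1 wound only, such as MYH1 or TNNI1, cannot reach such a p in this test. Most of the 28 had nearly all their reads in diabetic replicate 3, so the 0 was largely set in advance. No conclusion is drawn from its distance to the 9.05%. Over the 210 splits left without diabetic replicate 3 (smallest p 0.00476), RYR1 and CKMT2 reached an exact p under 0.05. The exact p was 0.0238 for RYR1, higher in the diabetic wounds, and 0.0190 for CKMT2, lower there. These were 2 of the 28, against 8.26% of the genes under the filter with a read. MYH1, MYH2, TNNI1, MYOD1 and MYOG had no read left. MYH4, MYL3, MYF5, PAX7, MYF6 and MYOZ2 had reads in 1 remaining wound only, and ACTA1 in 2. None of these genes could reach such a p, so the 2 shares are not directly comparable. RYR1 then had 0.0520 to 0.134 FPKM in the 6 diabetic wounds and 0.00748 to 0.0591 in the 4 non-diabetic ones, from at most 58 reads. These p-values were not adjusted. TNNT1 and LDB3 passed the filter only through diabetic replicate 3. Without it, TNNT1 had an exact p of 0.0429 and was lower in the diabetic wounds, by 0.58 on the log2 scale, and LDB3 an exact p of 0.833.

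LOC396711, described as myosin-3, was the developmental myosin with reads in every wound. It had 0.454 to 0.514 FPKM in the 6 diabetic wounds other than replicate 3 (median 0.475), and 0.544, 0.554, 0.714 and 0.892 FPKM in the non-diabetic ones. Those groups did not overlap, but the difference was small, and limma gave a log2 fold change of -0.25 (adjusted p = 0.309) without replicate 3 and -0.04 (adjusted p = 0.958) with it. In the 5 further muscle lists, 52 genes passed the filter and 3 were called by limma with all wounds, beside 3.0% of all tested genes. MYL6B, a light chain of non-muscle and slow muscle myosin, was higher in the diabetic wounds (log2 fold change 0.94, adjusted p = 0.0260). FABP3, a fatty acid binding protein of heart, muscle and other tissues, was lower (log2 fold change -1.69, adjusted p = 0.00423), as was SIX4, a homeobox factor of muscle and other lineages (log2 fold change -0.65, adjusted p = 0.0338). Without diabetic replicate 3, limma still called MYL6B (adjusted p = 0.0394) and FABP3 (adjusted p = 0.00677), and SIX4 missed the threshold (adjusted p = 0.0684), where 2.12% of all tested genes were called.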

How the data were processed

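The authors trimmed reads from directional poly-A libraries with fastp. HISAT2 2.2.1 placed them on the Sscrofa11.1 genome, StringTie 2.2.3 assembled them and featureCounts 2.0.6 gave reads per gene. The deposited values are FPKM. Neither the formula nor the strand setting is given in the sources used here. Multiplied by gene length, 100.0% of values were whole multiples of 1 step per library within 0.05 reads, which gave the reads quoted. Depth was 28314785 to 40168372 reads on genes per library, and 1 read on a gene of 2 kb was worth 0.0112 to 0.0194 FPKM.

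Groups follow the labels, with nothing saying that wounds are more than repeated samples of 1 animal. log2(FPKM + 0.5) was compared with limma 3.58.1 (lmFit, eBayes with trend) in R 4.3.3, with Benjamini-Hochberg adjustment over all genes at 0.5 FPKM or more in at least 4 libraries. The fit was run on simulated counts with a fixed spread and independent wounds. The simulated data held no outlying wound and no effect of the animal, so neither was tested by them. Genes under that filter had a two-sided exact permutation test. Limits for counts of 0 use 3 reads in the library where 1 read is worth the most FPKM. Alternatives changed the pseudocount, filter, scaling, weights, variance estimate, block, wounds and the tool (voom, on the recovered reads). Tables, tests and plots were made in Python 3.11.15 with pandas 2.3.3, matplotlib 3.10.9, SciPy 1.17.1 and numpy 2.4.6.

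The muscle genes and all lists were chosen with earlier results of these data known. Genes named are the 41 muscle genes, called genes of the further muscle lists with up to 5 of each by their gap in diabetic replicate 3, and, among genes in no list at 5 FPKM or more there, the 10 with the largest gap. LOC396711, LOC110255887 and LOC100736765 were named outside that rule, from their descriptions. Protein sequences were not used here, and 1 promoter sequence is not reported here.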

Additional observations from a re-analysis of the deposited data

Results flagged for a closer look

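Within the 7 diabetic wounds the gap between diabetic replicate 3 and the next value was set against the whole range of the group. For the summed FPKM of the 41 muscle genes the ratio was 1.00, above Dixon's 95% critical value for 7 samples, and 40 of the 41 genes passed the same value. The ratio was 1.00 for MYH1, MYH2, MYH4, TNNT3, MYLPF, ACTN3, MYH7, TNNI1, TNNC1, MYOZ2, ACTA1, MYBPC1, NEB, MYOZ1, CKM, MYOD1 and MYOG. It was 0.99 for TNNI2, MYL1, ATP2A1, ACTN2, TTN, TCAP, XIRP1, RYR1, CKMT2, PYGM and MYF6, and 0.98 for TNNC2 and ENO3. It was 0.97 for MYBPC2 and CASQ1, 0.96 for MYL2 and LDB3, 0.87 for MYL3 and PGAM2, 0.86 for TNNT1, 0.80 for CA3, 0.70 for PAX7 and 0.64 for MYF5. CASQ2 did not pass. The wound had been singled out for these values, so the ratios describe it and test nothing.

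Within the 4 non-diabetic wounds, tested against the critical value for 4 samples, replicate 4 stood apart for MYLPF (3 reads) and MYBPC1 (4 reads) and replicate 3 for MYOZ2 (2 reads), each with a ratio of 1.00 because the other non-diabetic wounds had no read. For normally distributed values the rule flags about 1 in 20 groups by chance, and 82 groups were examined. That rate does not hold for groups where most wounds had no read.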

How the results depend on the processing

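Over 21 alternatives the limma fold changes of the 13 tested muscle genes gave 261 values, of which 251 kept direction and side of the threshold, 9 reversed, and 1, CA3, passed the threshold. Leaving out each library in turn gave 104 to 236 genes called higher, 75 to 247 called lower, 0 to 1 muscle gene called (1 without diabetic replicate 3), and 0 to 2 genes under the filter with an exact permutation p under 0.05. Genes called higher fell to 106, 104 and 119 without non-diabetic replicates 1, 3 and 4, and genes called lower to 75, 122, 95 and 107 without non-diabetic replicates 1, 2, 3 and 4. Over the fits that left out 1 library, fold changes ran from -0.25 to 0.56 for MYBPC2 and from -0.24 to 0.61 for CASQ1. They ran from -0.16 to 0.90 for ENO3 and from -0.39 to 0.20 for PGAM2. MYBPC2, CASQ1 and ENO3 turned negative only without diabetic replicate 3. PGAM2 did so there, and also without diabetic replicate 4, non-diabetic replicate 3 or non-diabetic replicate 4. CA3 ranged from -3.30 to -2.11 over all alternatives. The cause of these moves was not tested beyond the change of samples itself.

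Array weights gave 406 genes called higher and 416 lower. With the replicate block there were 11 and 5, and no muscle gene was called. Replicate numbers are shared by label only, between wounds of different animals. Deviations of same-numbered wounds correlated at -0.27, 0.22, 0.07 and -0.48. Differently numbered wounds were not set beside them, so these values alone cannot decide on pairing. TNNT1 reversed to 0.18 with array weights and to 0.0045 with the replicate block. voom on the recovered reads called 144 higher and 179 lower. The summed level of diabetic replicate 3 over the median of the other wounds was 6.97 on the log2 scale, moved to 8.03 without CA3, PGAM2 and CASQ2, and lay between 6.48 and 6.92 under the other alternatives. No p-value replaces a second animal per group, and values of a few reads are limited by depth.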
